A study of Kluyveromyces lactis with 6 samples.

Results

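*RAG1*, *HGT1* and *RAG5* are genes of the first steps of glucose use in the budding yeast *Kluyveromyces lactis*: a low-affinity glucose transporter (KLLA0D13310g), a high-affinity glucose transporter (KLLA0A11110g) and the hexokinase (KLLA0D11352g). They were chosen by identifier and are 3 of the 5076 genes in the files, each measured in all 6 libraries. The RefSeq table used for symbols gives none of the 3 a symbol, so the names are those in use for these identifiers. RNA-seq was made from 3 strains, with 2 libraries each that the series calls technical replicates: a wild type (WT, strain LRY2835) and 2 isolates of a *sir2* deletion (isolate 1, LRY2849; isolate 2, LRY2850). The genotypes given for the 3 strains are *MATa* without the silent mating cassettes *HML* and *HMR*, so WT too is a deletion strain at these loci. Cells grew at 30 °C in rich medium with 2% glucose and were taken in early log phase. Each strain counts as 1 biological sample, so an effect of the strain or of its culture cannot be told apart from one of the genotype when WT is compared.

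Glucose enters *K. lactis* through transporters of low and high affinity and is then phosphorylated by hexokinase, the entry to glycolysis. *RAG* genes are named for mutants that cannot grow on glucose when respiration is blocked by antimycin. *RAG1* is known to be induced by glucose, and that induction is known to need *RAG5*. Sir2, the product of the deleted gene, removes acetyl groups from histones, uses NAD+ to do so and keeps chromatin silent.

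Values are FPKM (fragments counted per kilobase of a gene, relative to the mapped number), as the authors deposited them, so levels of different genes can be set side by side per length. FPKM added up to between 1542502 and 1803539 in a library, which is not a depth, and the number of reads is unknown. *SIR2* (KLLA0F14663g, named from general knowledge) was at 66.9 and 64.9 FPKM in WT and between 0.0503 and 0.108 in the 4 sir2Δ libraries. Differences are on the log2(FPKM + 1) scale, and a gene was called where the adjusted p in limma, over the 5021 genes that averaged 1 FPKM or more, was under 0.05. All 3 genes passed that filter.

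In sir2Δ cells *HGT1* and *RAG5* rose and *RAG1* did not pass the test. The high-affinity transporter gene *HGT1* was about 10.6-fold and the hexokinase gene *RAG5* about 2.61-fold higher than in WT, on the FPKM + 1 scale of the fit. *RAG1* was lower in isolate 1 and near its WT level in isolate 2. Thus 2 of the 3 genes were called higher and 0 lower in sir2Δ against WT, where 20.2% of all tested genes were called higher and 19.9% lower.

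*RAG1* read 6678 and 6319 FPKM in the WT libraries, 2940 and 3362 in those of isolate 1, and 5971 and 5949 in those of isolate 2. Both isolate 1 libraries lay below the other 4, and the isolate 2 libraries lay just under both WT libraries without overlap. For sir2Δ against WT, with 1 WT strain mean against 2 isolate means, the log2 change was −0.59 (SE 0.34, 95% interval −1.36 to 0.19, limma adjusted p = 0.195). After quantile normalization the gene passed the threshold (log2 change −0.611, SE 0.19, limma adjusted p = 0.00436). It also passed without isolate 1 replicate 2 (−0.634, SE 0.235). In both runs the change itself moved little and the SE was smaller. The spread that limma shares between genes was also estimated anew in each run, and what brought the calls was not tested.

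Taken singly, the isolates gave unlike values for *RAG1*. Isolate 1 fell to 0.485 of the mean WT FPKM (log2 change −1.05, SE 0.10, limma adjusted p = 2.45e-07). Isolate 2 was at 0.917 of it (−0.12, SE 0.10, 95% interval −0.33 to 0.08, limma adjusted p = 0.266), and after quantile normalization its change was −0.236 (adjusted p = 0.0225). These single-isolate values come from a fit of 6 libraries in 3 strain groups, in which 36.6% of tested genes were called lower in isolate 1 and 38.7% in isolate 2. Their p-values measure technical spread alone, and the WT libraries are shared by the 2 comparisons.

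The WT libraries held *HGT1* at 53.2 and 37.8 FPKM, those of isolate 1 at 369.7 and 403.6, and those of isolate 2 at 520.5 and 701. The 3 strains did not overlap, with WT lowest and isolate 2 highest. The log2 change in sir2Δ against WT was 3.40 (SE 0.24, 95% interval 2.84 to 3.96, limma adjusted p = 2.62e-05), the 71st largest rise among the 5021 tested genes. By mean FPKM, isolate 1 was 8.50-fold and isolate 2 was 13.4-fold above WT (log2 changes 3.08 and 3.72, both SE 0.15, limma adjusted p = 1.22e-10 and 1.12e-11), where 30.8% and 32.8% of tested genes were called higher in isolates 1 and 2. In WT and isolate 2 the technical libraries of *HGT1* were further apart than those of most genes. The gap was 0.48 on the log2 scale in WT and 0.43 in isolate 2, and 99.3% and 98.5% of tested genes had no larger gap in those strains. In isolate 1 it was 0.13, and 54.7% had no larger gap.

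*RAG5* began from 1340 and 1300 FPKM in the WT libraries, with 2684 and 3027 in isolate 1 and 3974 and 4399 in isolate 2. Here too WT was lowest, isolate 2 was highest and no strain overlapped another. The log2 change in sir2Δ against WT was 1.39 (SE 0.24, 95% interval 0.84 to 1.93, limma adjusted p = 0.00273). By mean FPKM the rise was 2.16-fold in isolate 1 and 3.17-fold in isolate 2 (log2 changes 1.11 and 1.66, both SE 0.10, limma adjusted p = 1.38e-07 and 1.13e-09).

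**Figure D1:**
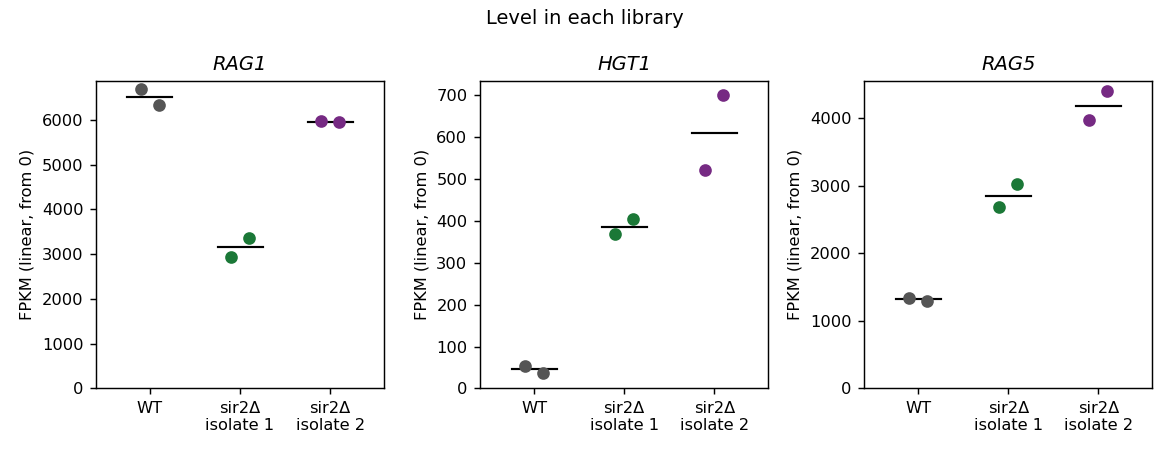
FPKM of *RAG1*, *HGT1* and *RAG5* in each of the 6 libraries, by strain, on linear axes that start at 0. Points are libraries and bars are strain means: *RAG1* is lowest in isolate 1 (mean 3151 FPKM), while *HGT1* and *RAG5* climb from WT through isolate 1 to isolate 2.

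The order of the levels was the same in all 6 libraries: *RAG1* was highest, *RAG5* next and *HGT1* lowest. In isolate 1 the FPKM of *RAG1* (2940 and 3362) and of *RAG5* (2684 and 3027) overlapped between libraries. Within each of these libraries *RAG1* was nonetheless the higher, at 1.095 and 1.111 times *RAG5*, against 4.98 and 4.86 times in WT and 1.502 and 1.352 times in isolate 2. The groups of *HGT1* and *RAG5* were well apart in every strain.

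In rank among the 5076 genes, *RAG1* was 38th and 40th from the top in the WT libraries, 103rd and 88th in isolate 1 and 44th and 50th in isolate 2. *RAG5* moved from 193rd and 197th in WT to 115th and 101st in isolate 1 and to 74th and 76th in isolate 2. *HGT1* moved from the middle of the genes, 2672nd and 3307th, to 554th and 524th in isolate 1 and 431st and 356th in isolate 2. *HGT1* thus stood among the upper genes in every sir2Δ library while still far under *RAG1*.

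The balance of the 2 transporter RNAs moved toward *HGT1* in both isolates. *RAG1* exceeded *HGT1* 125.5 and 167.3 times in WT, 7.95 and 8.33 times in isolate 1, and 11.5 and 8.49 times in isolate 2. WT lay far above both isolates, and the isolate 2 values lay just above those of isolate 1. Averaged per strain, the log2 ratio was 4.02 higher in WT than in the isolates. With 1 WT strain and 2 isolates the one-sided exact permutation p was 0.333, the smallest that 3 strains can give. *HGT1* made up 0.79% and 0.594% of the summed FPKM of both genes in WT, and 8.02% to 11.2% in the sir2Δ libraries. That sum was 6731 and 6357 FPKM in WT, 3309 and 3765 in isolate 1, and 6491 and 6650 in isolate 2, so the low *RAG1* level set the lower sum of isolate 1.

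**Figure D2:**
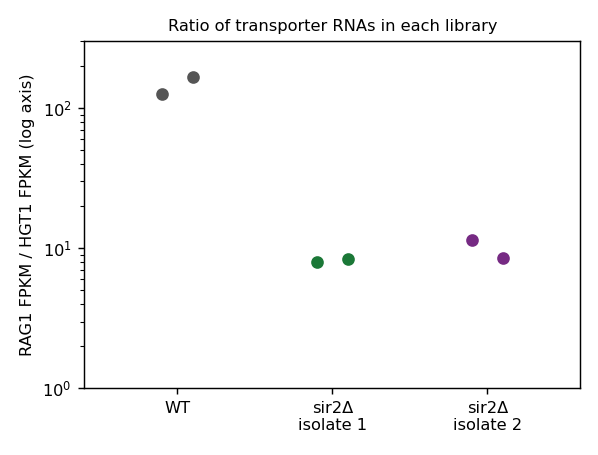
Ratio of *RAG1* FPKM to *HGT1* FPKM in each library, by strain, on a log axis. The WT libraries are at 125.5 and 167.3, and the 4 sir2Δ libraries lie between 7.95 and 11.5.

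The isolates also differed from each other in all 3 genes. Isolate 2 was higher than isolate 1 for *RAG1* by 0.92 on the log2 scale (SE 0.10, 95% interval 0.71 to 1.13, limma adjusted p = 0.000131). For *RAG5* the difference was 0.55 (SE 0.10, 95% interval 0.34 to 0.76, limma adjusted p = 0.0017). For *HGT1* it was 0.64 (SE 0.15, 95% interval 0.33 to 0.96, limma adjusted p = 0.00875). By mean FPKM these are 1.89-fold, 1.47-fold and 1.58-fold. In this comparison 7.89% of tested genes were called higher in isolate 2, and *RAG1* was the 4th, *HGT1* the 37th and *RAG5* the 57th largest rise. The *HGT1* call did not hold without isolate 1 replicate 1 (0.581, adjusted p = 0.147), without isolate 1 replicate 2 (0.707, adjusted p = 0.0602) or without isolate 2 replicate 2 (0.429, adjusted p = 0.201), while *RAG1* and *RAG5* passed with each of the 6 libraries left out in turn. All these p-values rest on technical spread, and each isolate is 1 biological sample.

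**Figure D3:**
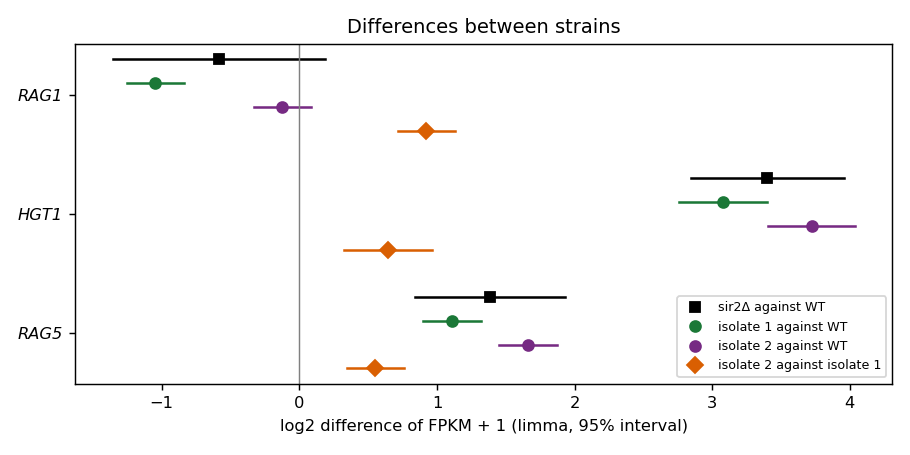
Log2 differences of FPKM + 1 with 95% intervals from limma for *RAG1*, *HGT1* and *RAG5*, in the genotype comparison (squares), each isolate against WT (circles) and isolate 2 against isolate 1 (diamonds). The genotype interval of *RAG1* spans 0 (−1.36 to 0.19), and those of *HGT1* and *RAG5* lie above it.

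In sir2Δ against WT, where *RAG5* rose, no other gene matched from a glycolysis list was called higher. The list, of 34 gene names for glycolysis down to ethanol formation, matched 13 genes by symbol besides *RAG5*, so it covers the pathway in part. In sir2Δ against WT, 0 of these 13 were higher and 4 were lower, with a median log2 change of −0.324 against −0.0584 over all tested genes. Of all tested genes, 20.2% were called higher and 19.9% lower. The 4 were *ADH3*, an alcohol dehydrogenase gene (−3.12), *GPM1*, phosphoglycerate mutase (−0.76), its relative *GPM3* (−0.70) and *ADH4* (−0.47). Without isolate 2 replicate 1 the count of lower genes was 2, and *GPM1* missed the threshold (limma adjusted p = 0.0568). *ADH4* missed it under median-of-ratios scaling, without the trend, and without WT replicate 2, isolate 1 replicate 1 or isolate 2 replicate 1 (adjusted p from 0.0506 to 0.0701). At the steps next to hexokinase, *PGI1*, phosphoglucose isomerase, changed by −0.07, and *PFK1* and *PFK2*, the phosphofructokinase subunits, by −0.42 and −0.15. None of these 3 passed.

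Taken singly, the isolates again gave unlike counts for the 13 genes. In isolate 1 against WT 0 were higher and 9 lower (median log2 change −0.521), where 30.8% of all tested genes were called higher and 36.6% lower. In isolate 2 against WT 3 were higher and 4 lower (median −0.088), where the shares of all tested genes were 32.8% and 38.7%. The higher genes were *FBA1*, aldolase (0.31), *PYK2*, a pyruvate kinase gene (0.29), and *PFK27* (0.27), named after their values were seen. Those 3 calls became 0 without WT replicate 1, without WT replicate 2 or without isolate 2 replicate 2, and 5 without either isolate 1 library. Under median-of-ratios scaling 1 gene was higher in isolate 1.

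Between the isolates, 11 of the 13 were higher in isolate 2 and 0 lower (median log2 difference 0.413, against 0.00603 over all tested genes, of which 7.89% were called higher). The largest difference was 0.84, for *ADH3*. Others included 0.64 for *PFK2*, 0.64 for *PGK1*, phosphoglycerate kinase, and 0.51 for *PGI1*, set beside 0.55 for *RAG5* and 0.92 for *RAG1*. That of *PGK1* was 0.383 after quantile normalization. The count fell to 6 under quantile normalization, 5 without isolate 1 replicate 1 and 3 without isolate 2 replicate 2. *PGK1* had 16090 and 15740 FPKM in the WT libraries, 9061 and 10220 in isolate 1, and 14830 and 15120 in isolate 2. Like *RAG1*, it was lowest in isolate 1 and a little under WT in isolate 2.

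**Figure D4:**
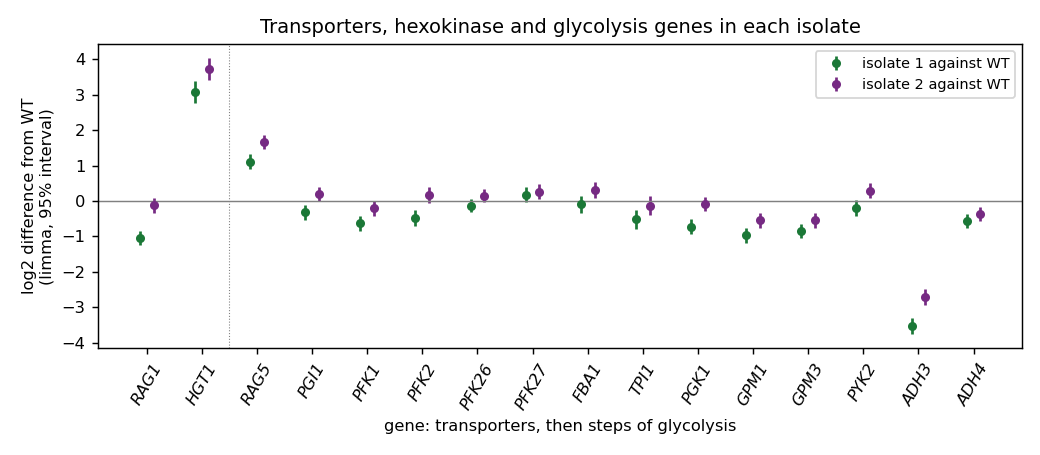
Log2 difference from WT, with 95% intervals from limma, for each isolate, in *RAG1*, *HGT1*, *RAG5* and the 13 other genes matched from the glycolysis list. *HGT1* and *RAG5* lie above 0 in both isolates, *RAG1* lies below 0 in isolate 1, and the isolate 2 point is above the isolate 1 point for every gene drawn.

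Regulators of glucose induction and repression changed in number no more than genes at large. Of 19 matched genes 4 were higher and 1 lower in sir2Δ (median log2 change 0.211), where 40.1% of all tested genes were called. *RGT1*, whose product represses hexose transporter genes, was at 4.08 and 3.55 FPKM in WT, 9.99 and 10.9 in isolate 1 and 13.1 and 13.5 in isolate 2 (log2 change 1.41, SE 0.27, limma adjusted p = 0.00465). Its level is low, and the change was 0.93 with a pseudocount of 5 (limma adjusted p = 0.00502) and 0.771 after quantile normalization (0.0203). *MIG1*, a glucose repressor gene, was at 41.6 and 33.6 in WT, 77.1 and 78.7 in isolate 1 and 94.9 and 120.7 in isolate 2 (1.27, SE 0.20, limma adjusted p = 0.00212). For both genes the strains did not overlap, with WT lowest and isolate 2 highest, the order seen for *HGT1* and *RAG5*.

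*HAP4*, an activator gene of respiration in *Saccharomyces cerevisiae*, changed by 0.57, and was not called without WT replicate 2 (limma adjusted p = 0.0506) or without isolate 1 replicate 2 (0.0568). *SNF4*, a subunit gene of the Snf1 kinase and named here after its value was seen, rose by 0.55. *CYC8*, a corepressor gene, fell by 0.70, from 54.7 and 57.6 FPKM in WT to between 30.5 and 38.0 in the sir2Δ libraries. *SNF1* (−0.38) and *GCR2* (−0.33), a gene of glycolytic gene activation in *Saccharomyces cerevisiae*, were the next lowest and did not pass. The list of sugar transporters and glucose sensors matched 1 further gene by symbol, *STL1*, which did not pass (0.19, limma adjusted p = 0.352). Both lists cover their pathways in part.

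Among the 4844 genes that averaged 10 FPKM or more, those most like each of the 3 in pattern were taken by the root mean square difference of log2 values centred on their own mean, over the 6 libraries. For *RAG1* they were the G1 cyclin gene *CLN3* (0.116), KLLA0E16303g (0.132) and *PGK1* (0.145). *CLN3* stood at 555.7 and 577.3 FPKM in WT, 244.3 and 274.4 in isolate 1 and 418.1 and 461.3 in isolate 2, so that isolate 1 was lowest. For *HGT1* they were KLLA0E09021g (0.157), *POX1*, acyl-CoA oxidase (0.158), and KLLA0C18117g (0.184). KLLA0C18117g was abundant, from 859.2 and 823.3 FPKM in WT to 7544 and 10970 in isolate 2. For *RAG5* they were *GUT1*, glycerol kinase (0.057), KLLA0E22089g (0.071) and KLLA0A10395g (0.086). *GUT1* ran from 24.6 and 24.1 FPKM in WT through 45.2 and 54.0 in isolate 1 to 70.4 and 77.8 in isolate 2. By this measure *RAG1* and *HGT1* were 1.89 apart, *RAG1* and *RAG5* 0.943 and *HGT1* and *RAG5* 0.962. *RAG5* was thus about as far from *HGT1* as from *RAG1*. Seen from *HGT1*, *RAG5* was the 242nd most alike of the 4844 genes and *RAG1* the 3913th. Seen from *RAG5*, *HGT1* was the 3897th and *RAG1* the 3801st. The measure is not scaled by the size of a gene's change.

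By the RefSeq gene order, *RAG1* and *RAG5* lie inside chromosome D, 268 and 357 genes from the nearer end, and *HGT1* is the 41st gene from the nearer end of chromosome A. Their coding lengths there are 1704, 1458 and 1656 nt. Of the 18 nearest neighbours, 3 on each side of each gene, 6 were higher and 2 lower in sir2Δ against WT, where 20.2% and 19.9% of tested genes were called.

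Next to *RAG1*, KLLA0D13288g was listed at 0.275 and 0.536 FPKM in WT and at 47.1, 41.5, 39.2 and 38.9 in the sir2Δ libraries (log2 change 4.93, limma adjusted p = 2.17e-06, and 3.107 with a pseudocount of 5). It did not differ between the isolates past the threshold (−0.18, limma adjusted p = 0.347), while *RAG1* did. On the other side of *RAG1*, *SVF1* changed by −0.07 (adjusted p = 0.724). Next to *HGT1*, KLLA0A11088g rose by 0.86 and *CWH43* did not pass (−0.31), and *GLC3*, the glycogen branching enzyme gene one place further, rose by 1.46. Next to *RAG5*, KLLA0D11330g rose by 1.43 and *RPN12*, a proteasome subunit gene, did not pass (0.35). The kit did not keep the strand, so reads of overlapping neighbours on opposite strands cannot be told apart.

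**Figure D5:**
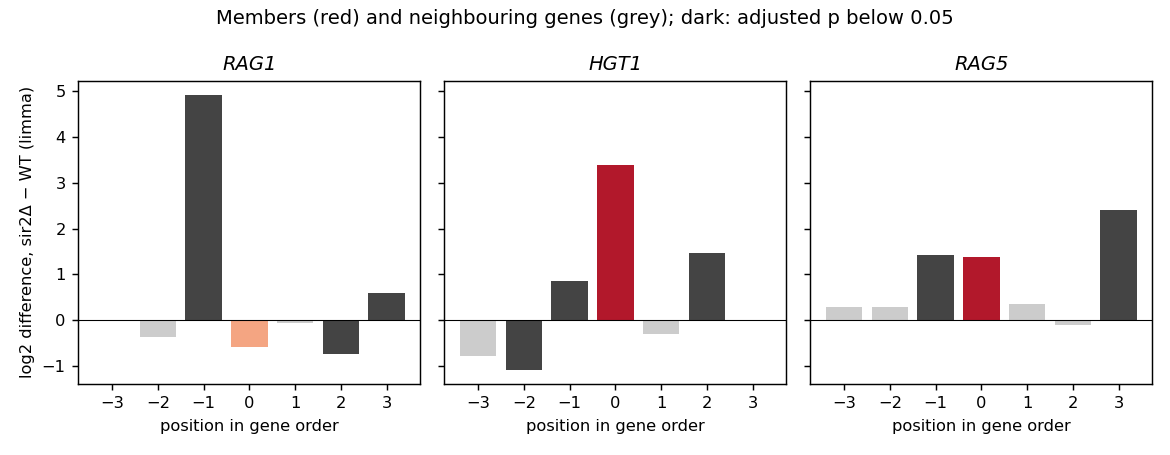
Log2 difference, sir2Δ minus WT, of each gene (position 0, red) and the 3 genes on each side in RefSeq order (grey), with dark bars for a limma adjusted p under 0.05. The tall bar beside *RAG1* is KLLA0D13288g (4.93), while *RAG1* itself is at −0.59.

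Some *K. lactis* strains are known to carry closely related hexose transporter genes side by side at the *RAG1* locus. Which form these strains carry is not known here, and reads of near-identical copies can be divided between them or joined in 1 value, so the level of *RAG1* is uncertain to that extent.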

How the data were processed

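RNA was taken by hot phenol, treated with DNase and made into non-stranded TruSeq libraries, and 50 bp reads were taken from 1 end, per the labels' protocols. The authors deposited 1 FPKM value per gene and library. The submitters' processing notes name TopHat2 2.0.10 and Cuffnorm 2.2.1. Genome build, annotation and scaling option are not stated there, so coordinates are left out. Read depth is unknown, which leaves no counting interval.

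All 5076 identifiers matched RefSeq assembly ASM251v1 (strain NRRL Y-1140), used for symbols, coding lengths and gene order. Tests were run on log2(FPKM + 1), a scale that understates changes of low genes, with limma 3.58.1 in R 4.3.3, an intensity trend and two-sided Benjamini-Hochberg adjusted p over 5021 genes. For sir2Δ against WT, technical libraries were averaged per strain (1 residual degree of freedom), and WT was assumed to vary like the isolates. Other contrasts used 6 libraries in 3 groups (3 residual degrees of freedom). The genotype fit and that of isolate 1 against WT were run on simulated data, with spread modelled on these data and an equal effect in both isolates. That checks the code and not the assumptions.

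The 3 genes and the lists were chosen with earlier results of these data known. Named genes are the 3, *SIR2*, the called members of a list of up to 15 genes or else its 3 highest and 3 lowest, the 3 most alike genes and the neighbours; other examples were chosen after their values were seen. Lists of protein relatives were not used here.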

Additional observations from a re-analysis of the deposited data

Results flagged for a closer look

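The 2 isolates differed from each other in all 3 genes, by the test of isolate 2 against isolate 1 in limma. WT cancels out of this test, so it compares 2 cultures and does not show that the effect of the deletion differs. With 1 library left out in turn, the *HGT1* difference ran from 0.429 to 0.858, and its call did not always hold. The difference was 0.92 on the log2 scale for *RAG1*, 0.64 for *HGT1* and 0.55 for *RAG5*, each higher in both isolate 2 libraries than in both isolate 1 libraries. For *RAG1* it separates a fall in isolate 1 (−1.05) from a value that did not pass in isolate 2 (−0.12), and for *HGT1* and *RAG5* it separates a smaller from a larger rise. The spread behind these tests is that of technical libraries, so variation between cultures of 1 strain was not measured, and isolate and culture cannot be told apart.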

How the results depend on the processing

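The log2 changes of *RAG1*, *HGT1* and *RAG5* in the 4 comparisons kept their sign under every alternative run, and 165 of the 171 recomputed values kept their side of the threshold. The other 6 were *RAG1* in sir2Δ against WT after quantile normalization (−0.611), *RAG1* in isolate 2 against WT after quantile normalization (−0.236), and values with 1 library left out. With each library left out in turn, *RAG1* in sir2Δ against WT ran from −0.634 to −0.537, and *HGT1* in isolate 2 against isolate 1 from 0.429 to 0.858. Between the isolates, the count of higher genes then ran from 71 to 461 and of lower genes from 161 to 465, against 396 and 541 with all libraries. Leaving out a library removes residual degrees of freedom in the fits of 3 strain groups, though not in the fit of strain means. Otherwise the cause was not tested. With 6 libraries entered singly in 2 genotype groups, lower genes in sir2Δ numbered 1740 of 5021, and 1675 with the replicate block, against 1000. Higher genes numbered 1477 and 1443, against 1013. Of the 19 glucose regulators both fits called 8 higher and 3 lower, against 4 and 1, so their counts grew along with those of all genes. The block with the replicate number changed no call of the 3 genes (*RAG1* in sir2Δ against WT −0.586, adjusted p = 0.118 in limma). Same-numbered libraries of different strains deviated with correlations of 0.005, 0.055 and 0.206 over 5021 genes, so the numbers were not taken as pairs. Without a read depth, low levels such as those of KLLA0D13288g in WT have no counting error here.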
